A study of Mus musculus with 15 samples.

Results

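Skeletal muscle contracts when an electrical signal on its surface membrane is turned into release of calcium from the sarcoplasmic reticulum, the internal calcium store of the fiber. This excitation-contraction coupling takes place at the triad, where an inward fold of the surface membrane (the T-tubule) lies against the store. A voltage-sensing calcium channel in the T-tubule (the dihydropyridine receptor) touches the ryanodine receptor RyR1, the release channel of the store, and opens it by direct contact. The calcium pump SERCA then returns calcium to the store and the fiber relaxes. The transcripts described here are those of 10 genes of this machinery, chosen by name as triad and calcium release genes and measured in each of the 15 deposited count files, out of 39179 gene identifiers per file. They are Ryr1 (the release channel), Fkbp1a (FKBP12, a small protein bound to the channel), Trdn (triadin, which anchors calsequestrin at the channel), Cacna1s, Cacnb1 and Cacng1 (the pore-forming, β and γ subunits of the voltage sensor), Stac3 (an adaptor that the voltage sensor needs in order to work), Jph1 and Jph2 (junctophilins, which hold T-tubule and store together) and Sln (sarcolipin, a small peptide that inhibits SERCA).

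Quadriceps muscle was taken from C57BL/6 mice of 2 genotypes at 2 ages, and its RNA was sequenced. The groups were 4 wild-type (MRPS5 WT) and 4 MRPS5 V338Y mice at 3 mo, and 3 wild-type and 4 MRPS5 V338Y mice at 19 mo. The V338Y mice are homozygous for a substitution in MrpS5, a protein of the small subunit of the mitochondrial ribosome, that lowers the accuracy of mitochondrial protein synthesis, and the change is in the germ line, so that an effect in muscle and one reaching muscle from elsewhere cannot be told apart. The study asked how this misreading and age act together on the muscle transcriptome. Each mouse gave 1 file, with no treatment in any group.

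Library totals ran from 8250653 to 18968132 counts, and the 10 genes took 0.640 to 1.033% of them. Mrps5 itself was measured at 23.7 ± 1.83 CPM (CPM, a gene's count relative to the size of its library after TMM scaling, mean ± SD, n = 4) in wild-type and 25.7 ± 1.5 (n = 4) in V338Y mice at 3 mo, and at 17.7 ± 1.79 (n = 3) and 17.4 ± 1.64 (n = 4) at 19 mo, so the transcript level neither checks nor contradicts a genotype label that stands for a single substitution. The summed level of 9 skeletal fiber markers was 74630 to 163800 CPM per mouse, and that of 6 atrial or cardiac markers was 3.55 to 15.4 CPM, with Myl7 and Nppa at 0 counts in every mouse and the other 4 (Myl4, Tnnt2, Tnni3 and Myh6) detected. The methods describe the mice as female with the sex of the V338Y mice at 19 mo unstated, but the transcripts differed by age. Ddx3y, a Y-linked gene, was at 163 to 202 CPM at 3 mo and did not exceed 0.0827 CPM at 19 mo, whereas Xist, expressed from the inactive X chromosome, did not exceed 0.575 CPM at 3 mo and stood at 506 to 631 CPM at 19 mo. Age and this sex-linked difference cannot be told apart in any age comparison below, and both genotypes carry it alike.

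For 5 of the 10 genes the RefSeq table of GRCm38.p6 holds a promoter window, from 250 bases before to 50 bases after the transcription start. The 4 printed here are those of genes that stood at opposite ends of the age comparison (Ryr1 and Fkbp1a against Jph2) and of Cacna1s, the direct partner of Ryr1. Capitals mark E-boxes, written CANNTG and the same on both strands, the sequence bound by muscle basic helix-loop-helix factors such as MyoD.
Ryr1, chr7:29125102-29125401, minus strand: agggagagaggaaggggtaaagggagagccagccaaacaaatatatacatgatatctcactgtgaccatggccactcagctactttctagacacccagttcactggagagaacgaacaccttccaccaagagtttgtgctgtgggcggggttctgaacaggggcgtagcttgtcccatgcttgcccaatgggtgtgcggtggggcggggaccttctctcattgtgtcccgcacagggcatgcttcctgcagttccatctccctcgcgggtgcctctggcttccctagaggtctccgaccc
Fkbp1a, chr2:151542233-151542532, plus strand: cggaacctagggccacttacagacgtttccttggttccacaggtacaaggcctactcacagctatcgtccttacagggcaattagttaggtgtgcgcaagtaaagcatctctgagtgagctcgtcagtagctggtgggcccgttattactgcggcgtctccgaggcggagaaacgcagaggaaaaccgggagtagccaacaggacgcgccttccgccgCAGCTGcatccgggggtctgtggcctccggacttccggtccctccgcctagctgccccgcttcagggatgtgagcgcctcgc
Cacna1s, chr1:136052561-136052860, plus strand: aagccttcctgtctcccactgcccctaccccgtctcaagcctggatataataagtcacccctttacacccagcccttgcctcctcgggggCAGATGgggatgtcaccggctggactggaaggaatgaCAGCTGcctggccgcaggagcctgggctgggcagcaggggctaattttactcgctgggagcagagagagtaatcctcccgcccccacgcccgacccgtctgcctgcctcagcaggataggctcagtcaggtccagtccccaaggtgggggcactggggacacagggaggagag
Jph2, chr2:163397944-163398243, minus strand: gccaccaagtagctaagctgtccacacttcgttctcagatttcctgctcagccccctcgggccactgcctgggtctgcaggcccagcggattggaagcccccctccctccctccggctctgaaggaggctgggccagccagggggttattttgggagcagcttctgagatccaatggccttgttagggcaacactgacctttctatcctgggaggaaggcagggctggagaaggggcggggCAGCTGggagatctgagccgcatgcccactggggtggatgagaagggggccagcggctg
The Cacna1s window held 2 E-boxes, those of Jph2 and Fkbp1a held 1 each and that of Ryr1 held 0. Of 32851 promoter windows of this length in the table, 72.3% held at least 1. Neither the MEF2 motif nor the CArG box, the site of serum response factor, nor the letters TATAAA were found on either strand of these windows, motifs held by 3.19%, 1.63% and 13.6% of all windows. An E-box was thus present both in Fkbp1a, which rose with age, and in Jph2, which fell.

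Per kilobase of exon (CPM divided by the summed length of all annotated exons), the genes at 3 mo fell into an upper and a lower range. In wild-type mice Trdn stood at 153 ± 15.8 CPM per kb, Ryr1 at 148 ± 15.9, Jph2 at 143 ± 3.59 and Cacna1s at 133 ± 9.27 (mean ± SD, n = 4). These 4 levels overlapped from one neighbour to the next, so their order was within the spread between mice. Cacng1 (96.9 ± 8.88) and Jph1 (95.9 ± 1.40) overlapped each other and lay below them, followed without overlap by Stac3 at 85.0 ± 3.92. Cacnb1 at 16.9 ± 1.61, Fkbp1a at 6.12 ± 0.393 and Sln at 0.487 ± 0.193 CPM per kb were each separate from their neighbours. In V338Y mice at 3 mo the same 4 genes led and the same 3 closed the order. The order at the top depends on the length used. Divided by the longest annotated transcript in place of all exons, Trdn at 318 ± 32.8 CPM per kb was above Ryr1 at 210 ± 22.7 without overlap in wild-type mice at 3 mo.

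At 19 mo Ryr1 led the order in both genotypes. It stood at 257 ± 31.7 CPM per kb of exon in wild-type mice (n = 3), above Cacna1s at 154 ± 29.0 without overlap, and at 200 ± 27.4 in V338Y mice (n = 4), where it overlapped Cacna1s at 149 ± 30.9. Jph2, level with Ryr1 at 3 mo, was down to 95.9 ± 24.6 CPM per kb in wild-type and 77.3 ± 30.1 in V338Y mice. Per kb of the longest transcript, Ryr1 and Trdn overlapped at the top in wild-type mice at 19 mo, at 365 ± 45.0 and 296 ± 47.3.

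**Figure D1:**
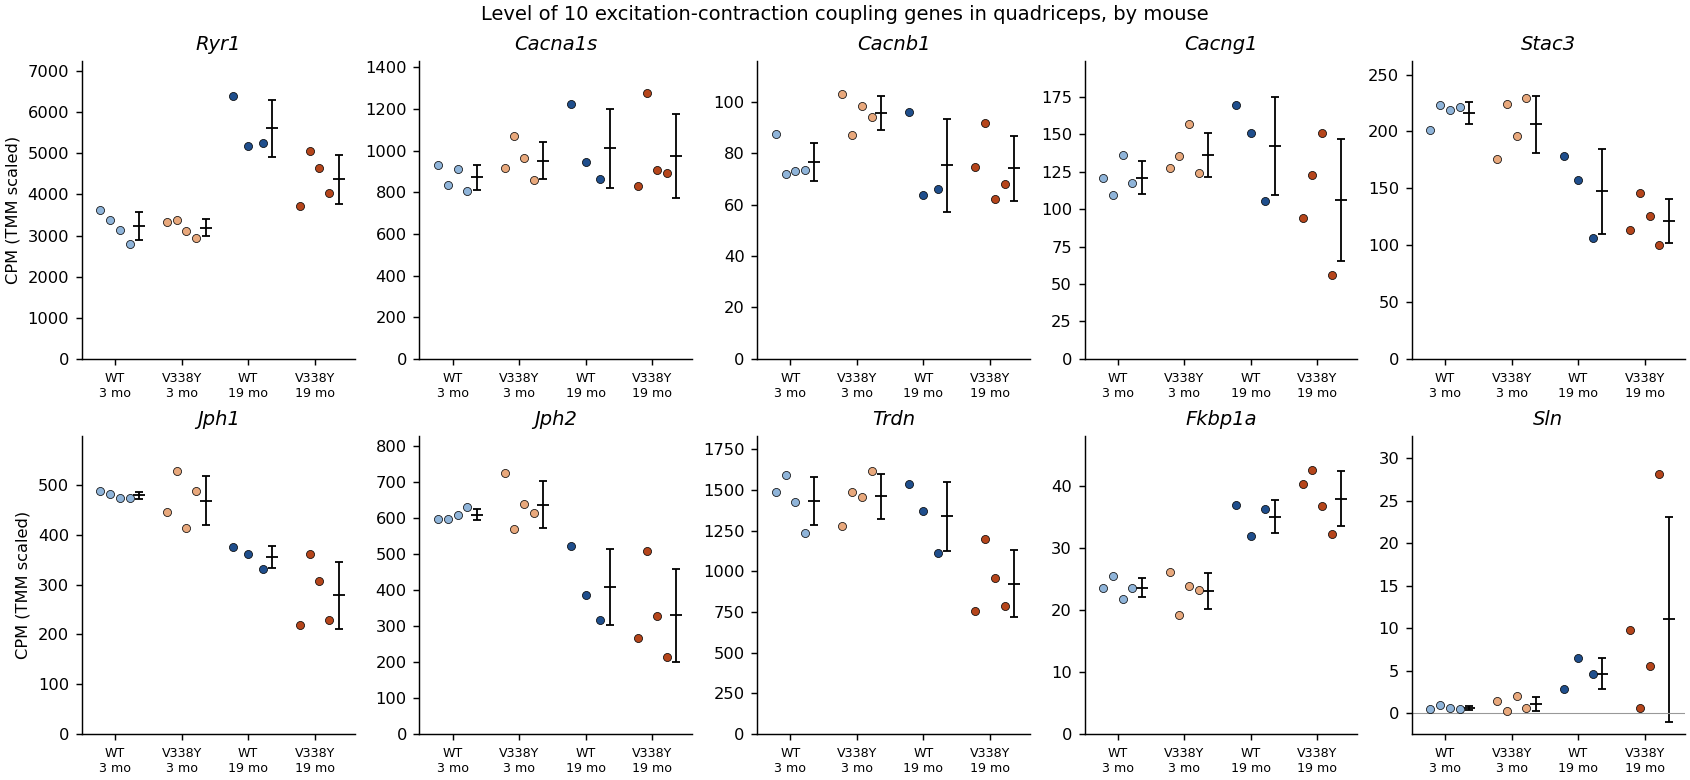
Level of each of the 10 genes in every mouse, in CPM on a linear axis from 0, with points for mice and a bar for mean ± SD of each group (n = 4, 4, 3 and 4). Ryr1, Fkbp1a and most Sln points are higher at 19 mo, Stac3, Jph1 and Jph2 points are lower in both genotypes, and the lower end of the SD bar of Sln in V338Y mice at 19 mo runs below 0 because 1 mouse is at 28.2 CPM.

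The first comparison was between ages within a genotype. In wild-type mice 3 of the 10 genes rose (Ryr1, Fkbp1a and Sln), where 18.3% of all 13657 genes tested were called higher at 19 mo, and 3 fell (Stac3, Jph1 and Jph2), where 17.8% were called lower, at an adjusted edgeR p under 0.05. In V338Y mice the same 3 rose, against 24.4% of 13868 genes called higher. There 5 genes fell, the same 3 and also Cacnb1 and Trdn, against 22.5% called lower. With 10 genes, 1 gene is 10% of the list, and these counts are given beside the shares of all genes without calling either direction particular to the machinery. The median log2 fold change of the 10 genes was 0.10 in wild-type mice, where that of all genes was 0.02, and -0.35 in V338Y mice, where that of all genes was 0.07. In bulk muscle, fewer fibers and less RNA of a gene per fiber cannot be told apart.

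Ryr1 (ENSMUSG00000030592, chromosome 7, 29003344 to 29125179 on GRCm38) had 3618, 3371, 3138 and 2801 CPM in the wild-type mice at 3 mo (mice 1 to 4, the order used for all genes) and 6404, 5177 and 5239 CPM at 19 mo (mice 2, 4 and 5). In V338Y mice it had 3339, 3372, 3111 and 2929 CPM at 3 mo and 3728, 5049, 4653 and 4023 CPM at 19 mo (mice 2 to 5). Every 19-mo mouse was above every 3-mo mouse of its genotype, as were 21.7% of all genes tested in wild-type and 20.3% in V338Y mice. The mean CPM at 19 mo was 1.74 times that at 3 mo in wild-type mice, and 1.37 times in the V338Y group. The log2 fold change was 0.80 ± 0.13 (SE, adjusted p = 0.0024) in wild-type and 0.47 ± 0.15 (adjusted p = 0.030) in V338Y mice. In V338Y mice the call was lost in 6 of the 8 fits that left out 1 mouse, at an adjusted p of 0.0556 to 0.0930, and in the fit without a filter on low counts (adjusted p = 0.072).

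Median fold changes with age differed between length classes of genes, and the longest annotated transcript of Ryr1, at 15358 bases, is far longer than that of any other member. Among genes with transcripts of at least 12000 bases the median log2 fold change with age was 0.40 in wild-type (157 genes) and 0.43 in V338Y mice (158 genes), whereas among those of 500 to 1000 bases it was -0.37 (570 genes) and -0.41 (570 genes). Genes under 500 bases did not continue this order, with medians of -0.16 (344 genes) and 0.18 (366 genes). When per-mouse offsets for GC content and length were put into the fit, 1 of 3 such alternatives chosen after the data were seen, the log2 fold change of Ryr1 became -0.21 (adjusted p = 0.317) in wild-type and -0.63 (adjusted p = 0.012) in V338Y mice. Offsets for length alone gave 0.29 (adjusted p = 0.126) and -0.08 (adjusted p = 0.699), and offsets for GC content alone gave 0.67 (adjusted p = 0.0086) and 0.27 (adjusted p = 0.183). The wild-type fold change thus stayed positive with either property alone and was negative with both, and the V338Y call was lost with each alone. Of the 14 age calls made for members in the 2 genotypes, those of Ryr1 were the ones whose sign reversed under the joint offsets.

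**Figure D2:**
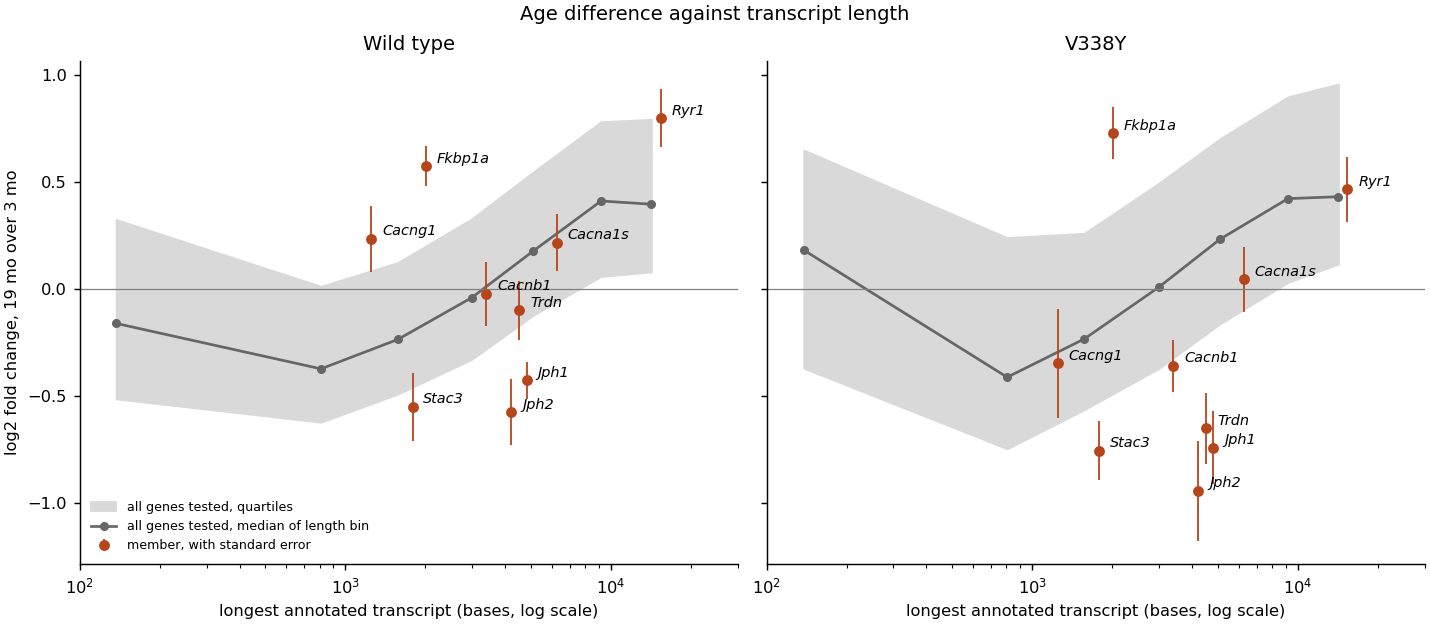
Log2 fold change from 3 mo to 19 mo against the length of the longest annotated transcript (bases, log axis), in wild-type (left) and V338Y mice (right). The grey line and band are the median and quartiles of all genes tested in 7 length bins, and orange points with standard errors are 9 members (Sln lies above the axis, at 2.81 and 3.28). Ryr1 at the far right sits at 0.80 over a bin median of 0.40 in wild-type mice and at 0.47 over 0.43 in V338Y mice, and Jph1 and Jph2 lie below the band in both.

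Fkbp1a (ENSMUSG00000032966, chromosome 2, 151542483 to 151561692) codes for FKBP12, which binds RyR1 and steadies its closed state. Its levels were 23.6, 25.5, 21.8 and 23.6 CPM in wild-type mice at 3 mo and 36.9, 32.0 and 36.2 CPM at 19 mo. In V338Y mice they were 26.1, 19.3, 23.8 and 23.2 CPM at 3 mo and 40.4, 42.5, 36.8 and 32.2 CPM at 19 mo. Neither genotype showed overlap between ages. Fkbp1a rose by a log2 fold change of 0.57 ± 0.09 (SE, adjusted p = 0.0021) in wild-type and 0.73 ± 0.12 (adjusted p = 0.0013) in V338Y mice. With its transcript of 2011 bases it rose in a length range where the median over genes of 2000 to 4000 bases was -0.04 and 0.01, and under the GC and length offsets it stayed at 0.66 and 0.79. FKBP12 is made in nearly all cells, and in these bulk libraries its transcript is not tied to the triad.

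Trdn (ENSMUSG00000019787, chromosome 10, 33080554 to 33476709) stood at 1487, 1589, 1424 and 1237 CPM in wild-type mice at 3 mo and at 1534, 1370 and 1111 CPM at 19 mo. These ages overlapped, and the log2 fold change of -0.10 ± 0.14 did not pass the test (adjusted p = 0.602). V338Y mice had 1279, 1489, 1456 and 1619 CPM at 3 mo and 753, 1200, 956 and 788 CPM at 19 mo. Here the highest 19-mo mouse was below the lowest 3-mo mouse, and Trdn fell by 0.65 ± 0.17 on the log2 scale (adjusted p = 0.011). The difference between the 2 age effects, a log2 interaction of -0.56 ± 0.22, had an unadjusted p of 0.025 and an adjusted p of 0.480. Trdn thus passed the age test in one genotype and not in the other, and the test of that difference did not pass over all genes.

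Cacna1s and Cacng1 did not pass the age test in either genotype. Cacna1s (ENSMUSG00000026407, chromosome 1, 136052750 to 136119822) ranged from 807 to 1067 CPM over the 8 mice at 3 mo and from 828.8 to 1274 CPM over the 7 mice at 19 mo. Its log2 fold change with age was 0.22 ± 0.13 (adjusted p = 0.229) in wild-type and 0.05 ± 0.15 (adjusted p = 0.825) in V338Y mice. Cacng1 (ENSMUSG00000020722, chromosome 11, 107703218 to 107716522), whose γ subunit tunes the voltage dependence of the channel, ranged from 110 to 157 CPM at 3 mo and from 56.0 to 170 CPM at 19 mo. The 19-mo range took in the whole 3-mo range, and neither log2 fold change passed the test, at 0.23 ± 0.15 (adjusted p = 0.256) and -0.35 ± 0.25 (adjusted p = 0.279). In wild-type mice Cacng1 was called higher with GC and length offsets, at 0.45 (adjusted p = 0.035), and without mouse 5 of the 19-mo group, at 0.40 (adjusted p = 0.024).

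Cacnb1 (ENSMUSG00000020882, chromosome 11, 98001508 to 98023034) codes for the β subunit that brings the channel to the T-tubule. It had 87.5, 71.9, 73.2 and 73.6 CPM in wild-type mice at 3 mo and 95.9, 63.7 and 66.0 CPM at 19 mo. In V338Y mice it had 103, 87.2, 98.3 and 94.2 CPM at 3 mo and 74.6, 91.6, 62.0 and 68.0 CPM at 19 mo. The wild-type ages overlapped, whereas in V338Y mice 3 of the 4 older mice lay below every young one and mouse 3 did not. The log2 fold change was -0.02 ± 0.15 (adjusted p = 0.920) in wild-type mice, while Cacnb1 in V338Y mice fell by 0.36 ± 0.12 (adjusted p = 0.034), a call lost in 6 of the 8 fits without 1 mouse. The interaction of -0.34 ± 0.20 had an adjusted p of 0.597.

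Stac3 (ENSMUSG00000040287, chromosome 10, 127501686 to 127508823) was the member of the voltage sensor group that fell in both genotypes. Its levels in wild-type mice were 201, 223, 219 and 221 CPM at 3 mo and 179, 158 and 106 CPM at 19 mo. In V338Y mice they were 176, 224, 196 and 229 CPM at 3 mo and 113, 146, 126 and 100.2 CPM at 19 mo. The ages did not overlap in either genotype, as for 21.7% of all genes lower at 19 mo in wild-type and 21.9% in V338Y mice. Stac3 fell by 0.55 ± 0.16 (adjusted p = 0.025) in wild-type and by 0.75 ± 0.14 (adjusted p = 0.0020) in V338Y mice on the log2 scale. The wild-type call was lost in 4 of the 7 fits without 1 mouse, at an adjusted p of 0.0501 to 0.0547, and under the GC and length offsets (-0.42, adjusted p = 0.066). The V338Y call held in each of these fits.

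The junctophilins fell with age in both genotypes. Jph1 (ENSMUSG00000042686, chromosome 1, 16964560 to 17097889) had 488, 482, 474 and 473 CPM in wild-type mice at 3 mo and 375, 362 and 332 CPM at 19 mo. In V338Y mice Jph1 had 446, 528, 413 and 488 CPM at 3 mo and 219, 361, 306 and 229 CPM at 19 mo. Its level fell to 0.743 of the 3-mo mean in wild-type and 0.595 in V338Y mice, and the ages did not overlap. Jph1 fell by 0.43 ± 0.09 (adjusted p = 0.0054) and by 0.74 ± 0.17 (adjusted p = 0.0061) on the log2 scale.

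Jph2 (ENSMUSG00000017817, chromosome 2, 163336242 to 163397993) had 598, 597, 608 and 630 CPM in wild-type mice at 3 mo and 521, 387 and 315 CPM at 19 mo. In V338Y mice Jph2 had 726, 569, 639 and 614 CPM at 3 mo and 267, 508, 327 and 214 CPM at 19 mo. The mice at 3 mo lay close together and those at 19 mo were spread from 315 to 521 and from 214 to 508 CPM, without overlap between the ages. Jph2 fell by 0.58 ± 0.15 (adjusted p = 0.018) and by 0.94 ± 0.23 (adjusted p = 0.0090). In wild-type mice its call was lost without mouse 4 of the 19-mo group (adjusted p = 0.063) and in the fit of all 15 mice (adjusted p = 0.065). Both junctophilins have transcripts of over 4000 bases, in the length range where the median gene was higher at 19 mo, and the offsets for GC content and length gave larger decreases, to -0.52 and -1.02 in wild-type and -0.84 and -1.5 in V338Y mice for Jph1 and Jph2. Jph2 and Fkbp1a lie 35.7 and 23.9 Mb from Mrps5 on chromosome 2.

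**Figure D3:**
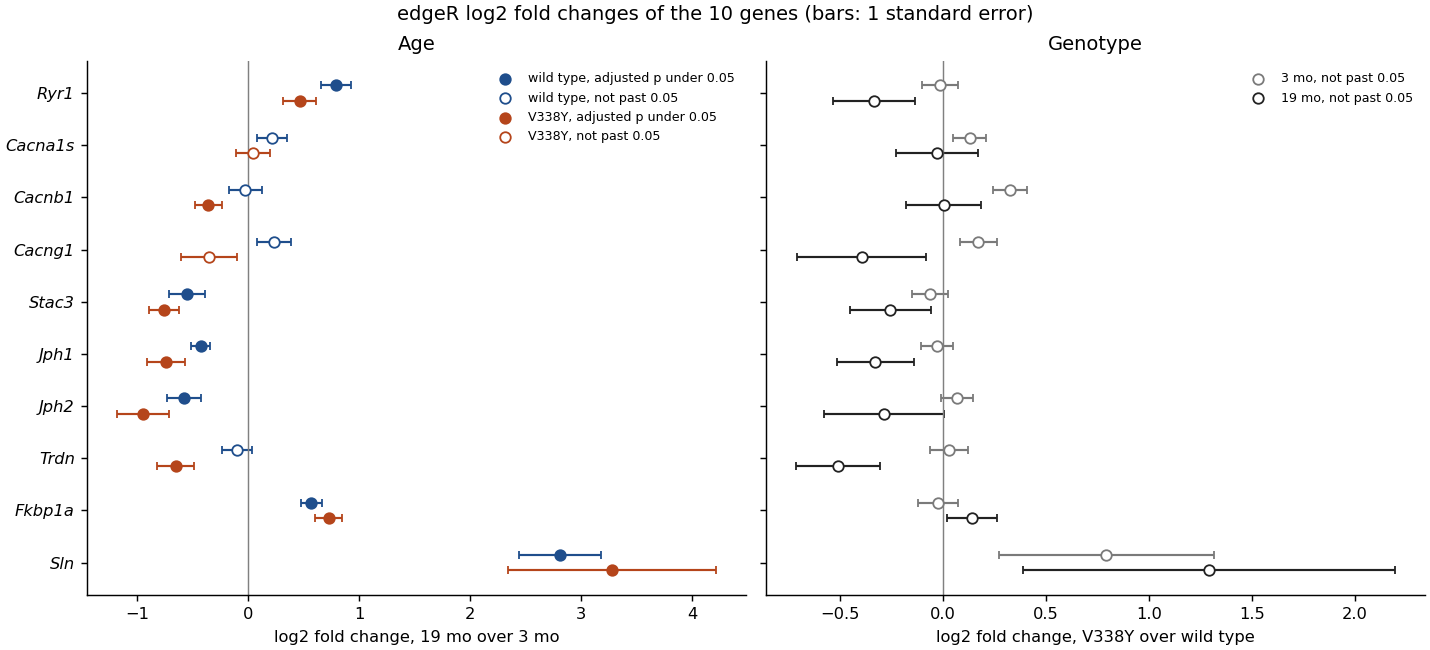
Log2 fold change with standard error of the 10 genes, for age within each genotype (left, 19 mo over 3 mo) and for genotype at each age (right, V338Y over wild type), on linear axes. Filled points have an adjusted p under 0.05 and open points do not: 6 points are filled for wild-type and 8 for V338Y mice in the age panel, and 0 in the genotype panel.

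Summed skeletal fiber markers were lower at 19 mo in every V338Y mouse, and in wild-type mice 4 and 5 but not mouse 2. Wild-type mouse 2, at 147158 CPM, lay within the young range of its genotype. Its Stac3, Jph1 and Jph2 (179, 375 and 521 CPM) were below every young wild-type mouse. The summed level of 9 skeletal fiber markers was 141700 to 149200 CPM in wild-type mice at 3 mo and 95460 to 147200 CPM at 19 mo, and 145500 to 163800 and 74630 to 127000 CPM in V338Y mice. Of these 9 markers 3 were called lower with age in wild-type and 6 in V338Y mice, with 0 called higher in either. The shares of all genes called lower were 17.8% and 22.5%. Apart from Acta1 and Ckm, the list holds fast-fiber genes (Myh1, Myh2, Myh4, Mylpf, Tnnt3, Tnni2 and Actn3), so its sum does not stand for all fibers. The largest part of the sum, Myh4, went from 68656 to 59723 CPM on average in wild-type mice. In V338Y mice it went from 69769 to 45592 CPM, and it was called in neither genotype. Mean levels of the markers Myh1 and Myh2 were higher at 19 mo in both genotypes, without a call. In wild-type mice they went from 2501 to 4708 and from 482 to 1634 CPM. The part of the fiber markers in the decrease of the junctophilins and Stac3 was not tested.

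Sln (ENSMUSG00000042045, chromosome 9, 53850164 to 53854560) had the largest fold change with age of the 10 genes in both genotypes, from a very low start. In wild-type mice it had 0.456, 0.994, 0.663 and 0.453 CPM at 3 mo, which is 5 to 14 counts per mouse, and 2.86, 6.52 and 4.63 CPM at 19 mo, or 46 to 88 counts. In V338Y mice Sln had 1.44, 0.286, 2.07 and 0.576 CPM at 3 mo and 9.82, 0.671, 5.52 and 28.2 CPM at 19 mo. All 3 older wild-type mice exceeded all young ones, whereas among V338Y mice 3 of 4 did, and mouse 3 at 19 mo lay within the young range with 10 counts. The log2 fold change was 2.81 ± 0.37 (adjusted p = 0.00076) in wild-type and 3.28 ± 0.93 (adjusted p = 0.017) in V338Y mice, and 2.19 (adjusted p = 0.036) without mouse 5 of the V338Y 19-mo group. Compared with the SERCA1 gene Atp2a1, whose pump sarcolipin inhibits and which was at 18545 ± 2342 CPM (SD, n = 3) in wild-type mice at 19 mo, Sln transcripts stayed scarce in every mouse.

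Sln is known to be made in slow fibers, in atria and in denervated or injured muscle, and markers of slow fibers varied in the same mice. The summed level of 8 slow fiber markers was 76.3 to 92.2 CPM in wild-type and 64.7 to 204 CPM in V338Y mice at 3 mo. At 19 mo it was 90.3, 483 and 891 CPM in wild-type mice 2, 4 and 5, and 158, 76.9, 161 and 2958 CPM in V338Y mice 2, 3, 4 and 5. V338Y mouse 5, with the highest Sln, had the highest slow fiber sum, and V338Y mouse 3, with the lowest Sln of the older mice, had the lowest. The order did not hold for all mice. V338Y mouse 2 at 3 mo had the highest slow fiber sum of the young mice (204 CPM) and the lowest Sln (0.286 CPM), wild-type mouse 5 at 19 mo had a higher sum and less Sln than mouse 4, and V338Y mice 2 and 4 at 19 mo differed in Sln (9.82 and 5.52 CPM) at nearly equal sums. All 8 slow fiber markers were called higher with age in wild-type mice, whereas in V338Y mice 0 were, and none was at 0 in all mice. The summed level of 9 markers of denervated or immature fibers was 23.6 to 28.6 CPM in wild-type mice at 3 mo and 49.6 to 58.8 CPM at 19 mo. In V338Y mice it was 86.96, 27.1, 29.7 and 22.5 CPM at 3 mo (mice 1 to 4). At 19 mo it was 42.4 to 137 CPM there, highest again in mouse 5. Of these markers 6 were called higher with age in wild-type and 4 in V338Y mice, with 0 called lower. The shares of all genes called higher were 18.3% and 24.4%. V338Y mouse 5 also had 596 CPM of 6 neutrophil markers, where the other 14 mice had at most 25.3 CPM. The summed atrial or cardiac markers were at 4.26 to 12.6 CPM in wild-type and 3.92 to 13.6 CPM in V338Y mice at 3 mo, and at 5.70 to 10.2 and 3.55 to 15.4 CPM at 19 mo, again highest in mouse 5 and lowest in mouse 3 of the V338Y group, and 1 of them, Myl4, was called higher with age in wild-type mice (0.94, adjusted p = 0.016). The part of slow fibers, denervation, neutrophils or atrial genes in the Sln levels was not tested.

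**Figure D4:**
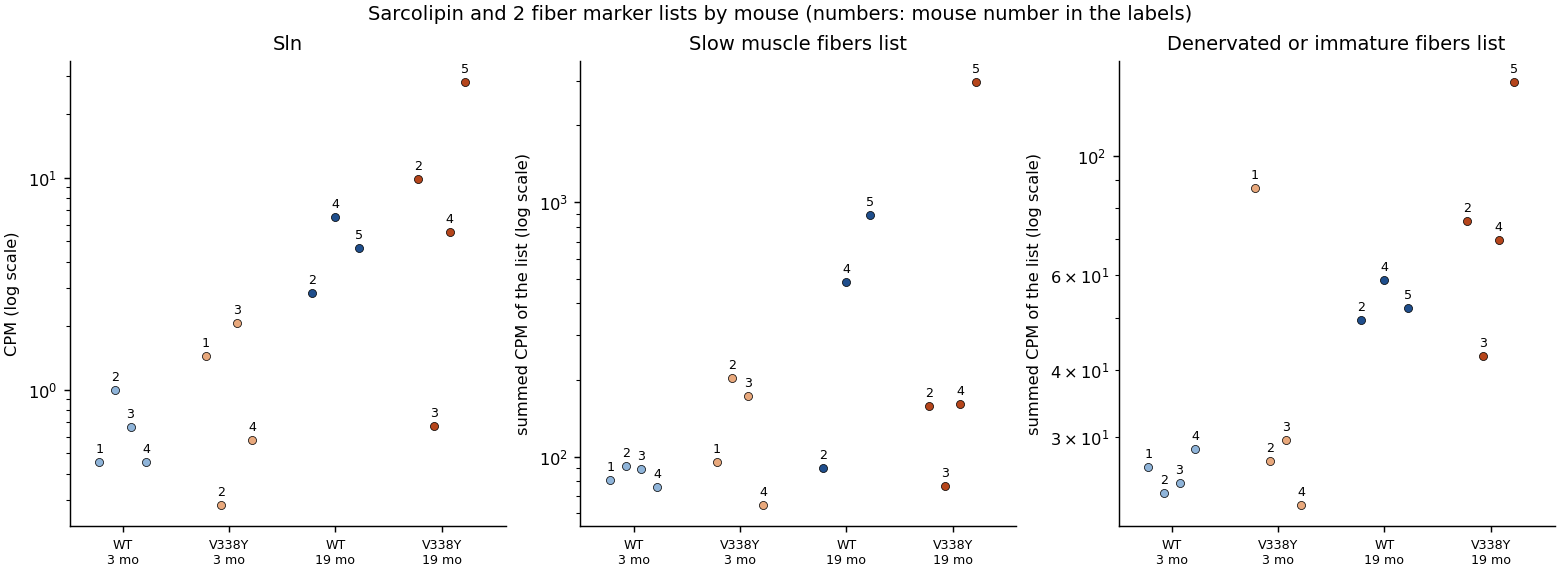
Sln (left) and the summed CPM of the slow fiber markers (middle) and of the markers of denervated or immature fibers (right) in every mouse, on log axes, with the mouse number beside each point. In V338Y mice at 19 mo, mouse 5 is at the top of all 3 panels (28.2, 2958 and 137 CPM) and mouse 3 at the bottom (0.671, 76.9 and 42.4 CPM).

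The second comparison was between genotypes at one age, and none of the 10 genes passed it. At 3 mo 0 of the 10 genes had an adjusted edgeR p under 0.05, against 10 of 13333 genes tested (0.075%), and 1 of the 10, Cacnb1, had an unadjusted p under 0.05. DESeq2 called 66 genes at 3 mo and again 0 of the 10. Cacnb1 was at 95.7 ± 6.69 CPM in V338Y and 76.5 ± 7.31 CPM in wild-type mice (SD, n = 4 each), a log2 fold change of 0.33 ± 0.08 with an unadjusted p of 0.0026 and an adjusted p of 0.304. The groups overlapped narrowly, since wild-type mouse 1 with 87.5 CPM was above V338Y mouse 2 with 87.2 CPM. The other 8 genes apart from Sln lay between -0.06 and 0.17 on the log2 scale, and Sln at 0.79 ± 0.52 (adjusted p = 0.662). At 3 mo 0 of the 10 genes had genotypes without overlap, against 2.48% of all genes with every V338Y mouse higher and 2.24% with every V338Y mouse lower.

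At 19 mo 0 of the 10 genes were called, against 6 of 13833 genes tested (0.0434%), and 1 of the 10, Trdn, had an unadjusted p under 0.05. DESeq2 called 62 genes there, and 0 of the 10. Trdn was at 924 ± 204 CPM in V338Y (n = 4) and 1338 ± 214 CPM in wild-type mice (n = 3), a log2 fold change of -0.51 ± 0.20 with an unadjusted p of 0.036 and an adjusted p of 0.541. The groups overlapped, since V338Y mouse 3 with 1200 CPM was above wild-type mouse 5 with 1111 CPM. Ryr1 was the gene among the 10 whose groups did not overlap, with every V338Y mouse (3728 to 5049 CPM) below every wild-type mouse (5177 to 6404 CPM), as were 5.28% of all genes, and 0 of the 10 had every V338Y mouse higher, as 4.51% of all genes had. Its log2 fold change was -0.33 ± 0.20 (adjusted p = 0.637). Of the 10 genes 7 had a negative log2 fold change at 19 mo, from -0.51 to -0.03, and their median was -0.27, where that of all genes was 0.01. Beside this, the median log2 fold change of the 9 skeletal fiber markers was -0.295 and that of 7 adipocyte markers 1.25, with 0 called in either list. Of 6 neutrophil markers 0 were called. Only 2 of them passed the count filter in wild-type mice, and the rest entered through the V338Y mice at 19 mo, so no median is given. The summed neutrophil markers were 2.30, 25.3, 4.52 and 596 CPM in V338Y mice 2 to 5, and 2.07 to 4.30 CPM in wild-type mice. The part of fibers, adipocytes and neutrophils in the members' values was not tested.

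At 19 mo the 3 same-numbered pairs all correlated positively in their deviations from group means. The most alike pair was differently numbered, however. V338Y mouse 3 and wild-type mouse 2 correlated at 0.467, above each same-numbered pair. The mouse numbers in the labels thus gave only a hint of shared deviations. On that hint the 3 same-numbered pairs were also fitted with a replicate block. That fit called 110 genes in place of 6 and still 0 of the 10, with adjusted p between 0.116 (Trdn, -0.64) and 0.766 (Cacnb1, -0.08). Jph2 was at -0.55 (adjusted p = 0.150), Jph1 at -0.48 (adjusted p = 0.155), Ryr1 at -0.40 (adjusted p = 0.268) and Sln at 1.48 (adjusted p = 0.166) in the paired fit. With GC and length offsets added to the block, 84 genes and 0 of the 10 were called.

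The third comparison asked whether the age effect differed between genotypes. The interaction was called for 0 of 14128 genes (0%) by edgeR at an adjusted p under 0.05, with 1361 at an unadjusted p under 0.05, while DESeq2 called 26. None of the 10 was called by either, and Trdn was the 1 with an unadjusted edgeR p under 0.05. The log2 interaction was negative for 8 of the 10 genes, from -0.18 (Cacna1s) to -0.59 ± 0.33 (Cacng1), and positive for Fkbp1a (0.14 ± 0.16) and Sln (0.46 ± 1.27). Without V338Y mouse 5 at 19 mo the Sln interaction was -0.59. The genes called with age in V338Y mice alone, Cacnb1 and Trdn, are thus not shown to differ in their age effect between genotypes.

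Within the 19-mo groups the genes of the triad mostly departed to one side in some mice and were divided in others. In wild-type mouse 2 all 9 genes other than Sln were above the group mean of log2(CPM + 0.5) and each was the highest of its group, with a median departure of 0.28. In V338Y mouse 3 all 9 were above the group mean, 8 of them the highest, with a median departure of 0.32. V338Y mouse 5 had 0 of the 9 above the mean (median departure -0.23) and V338Y mouse 2 had 2 of 9 (-0.21). Wild-type mouse 5 had 1 of 9 (-0.21), wild-type mouse 4 had 4 of 9 (-0.04) and V338Y mouse 4 had 6 of 9 (0.07). Sln was on the other side of its mean in each of the 7 mice, at -0.56 in wild-type mouse 2, -2.53 in V338Y mouse 3, 2.09 in V338Y mouse 5 and 0.61 in V338Y mouse 2, with values nearer 0 in wild-type mouse 5 (0.05), wild-type mouse 4 (0.50) and V338Y mouse 4 (-0.17). The summed skeletal fiber markers were highest in wild-type mouse 2 (147158 CPM) and V338Y mouse 3 (127050 CPM) of their groups, and lowest in wild-type mouse 5 (95459 CPM) and V338Y mice 5 and 2 (74632 and 87697 CPM). Their part in these departures was not tested. At 3 mo no mouse had more than 7 of the 9 genes above its group mean, and median departures were between -0.05 and 0.03. These departures rest on 7 older mice and share one scaling factor per mouse, so they are given as a description.

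**Figure D5:**
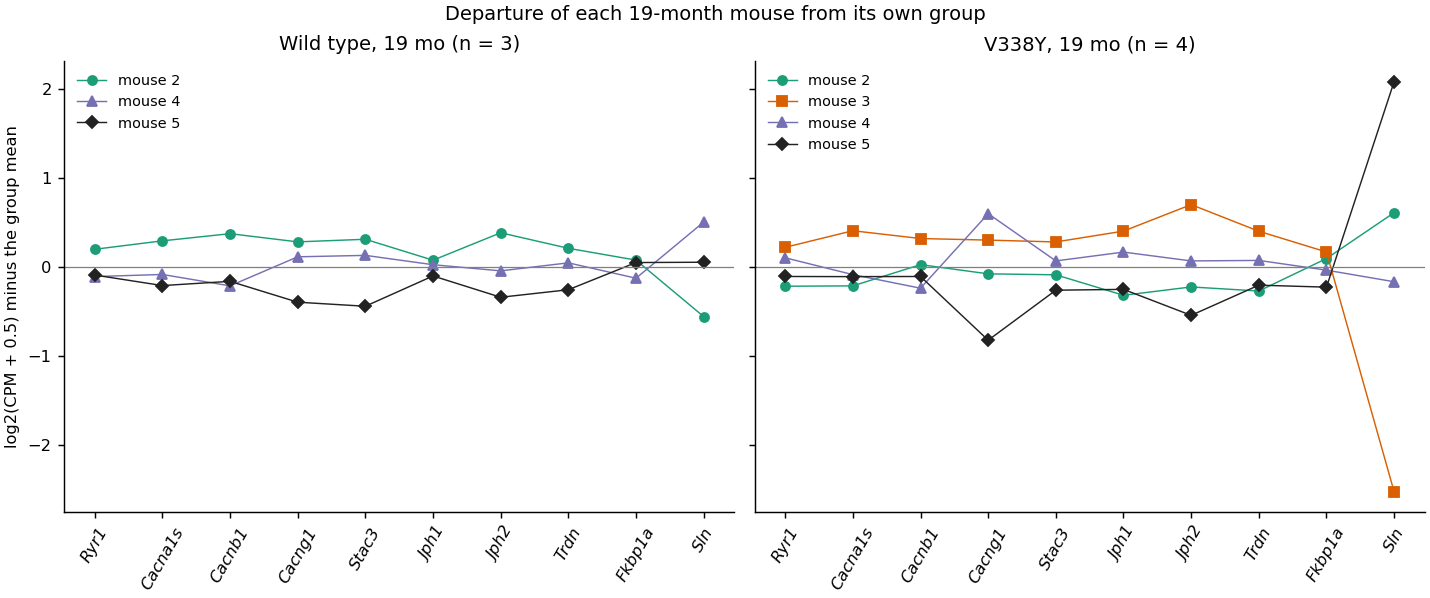
Departure of each 19-mo mouse from the mean of its own group, in log2(CPM + 0.5), for the 10 genes in wild-type (left, n = 3) and V338Y mice (right, n = 4), with 1 line per mouse. The lines of wild-type mouse 2 and V338Y mouse 3 run above 0 for 9 genes and drop below it for Sln (-0.56 and -2.53), and that of V338Y mouse 5 runs below 0 and ends at 2.09.

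The balance between voltage sensor and release channel was followed as the log2 ratio of Cacna1s to Ryr1 counts within a mouse, which needs no scaling between libraries. It was -1.89 ± 0.12 (SD, n = 4) in wild-type mice at 3 mo and -2.48 ± 0.11 (n = 3) at 19 mo, and -1.75 ± 0.09 (n = 4) and -2.17 ± 0.15 (n = 4) in V338Y mice. The ages did not overlap in either genotype. The exact two-sided permutation p was 0.0571 in wild-type mice, the smallest that 3 against 4 mice can give, and 0.0286 in V338Y mice, the smallest for 4 against 4. At 19 mo the ratio was higher in V338Y than in wild-type mice by 0.31, again without overlap (exact permutation p = 0.0571). Adjusted over the 12 ratio tests made, these were all 0.171 and none passed. The transcripts of Ryr1 and Cacna1s differ in length, 15358 and 6251 bases. With GC and length offsets the log2 fold changes with age of Cacna1s and Ryr1 were both -0.21 in wild-type mice. In V338Y mice they were -0.45 and -0.63. With length offsets alone they were -0.03 and 0.29 in wild-type and -0.23 and -0.08 in V338Y mice. The ratio itself was not computed with offsets, and the part of transcript length in it was not tested.

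The log2 ratio of Jph2 to Jph1 was 0.34 ± 0.05 (SD, n = 4) in wild-type mice at 3 mo and 0.17 ± 0.28 (n = 3) at 19 mo, and 0.44 ± 0.27 (n = 4) and 0.20 ± 0.25 (n = 4) in V338Y mice. The difference between ages was within the spread between mice in both genotypes (exact permutation p of 0.286 and 0.200, adjusted 0.429 and 0.392). The log2 ratio of Sln to Atp2a1 was higher at 19 mo by 1.83 in wild-type (exact permutation p = 0.0571, adjusted p = 0.171) and by 2.03 in V338Y mice (exact permutation p = 0.229, adjusted p = 0.392). The V338Y value was 1.18 without mouse 5 of the 19-mo group and 3.19 without mouse 3, which had the highest and the lowest Sln.

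Of 23 further triad and calcium release genes, 3 were called higher and 8 lower with age in wild-type mice, and 2 higher and 13 lower in V338Y mice. The shares of all genes called higher and lower were 18.3% and 17.8% in wild-type and 24.4% and 22.5% in V338Y mice, and the counts of this list and of the lists that follow stand beside these shares with nothing read from them as particular to a list. The median log2 fold change of the 23 genes was -0.24 in the wild type and -0.44 in the mutant, where that of all genes was 0.02 and 0.07. Cav3, the caveolin of the muscle membrane that takes part in forming T-tubules, fell by 1.28 ± 0.14 (adjusted p = 0.00034) in wild-type and by 1.5 ± 0.17 (adjusted p = 0.00019) in V338Y mice. S100a1, a calcium-binding protein that acts on RyR1, fell by 1.07 ± 0.09 (adjusted p = 0.00011) and by 1.05 ± 0.14 (adjusted p = 0.00044). Srl (sarcalumenin), a calcium-binding protein in the lumen of the store, fell by 0.77 ± 0.11 (adjusted p = 0.0013) and by 1.13 ± 0.14 (adjusted p = 0.00028). Dysf (dysferlin), a protein of membrane repair found along T-tubules, rose by 0.69 ± 0.08 (adjusted p = 0.00055) and by 0.63 ± 0.13 (adjusted p = 0.0044). None of the 23 was called between genotypes or in the interaction. As set out for Ryr1, median fold changes with age differed between length classes of genes. Medians of -0.37 (wild type) and -0.41 (mutant) belonged to transcripts of 500 to 1000 bases, and 0.40 and 0.43 to those of at least 12000 bases. The part of transcript length in the fold changes of this list and of the lists that follow was not tested.

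On the side of calcium reuptake and buffering, 7 of 8 listed genes were tested, with 3 called higher and 1 lower in wild-type mice and 2 in each direction in V338Y mice. The median log2 fold change was 0.605 and 0.37. Atp2a1, the SERCA pump of fast fibers, rose by 0.95 ± 0.14 (adjusted p = 0.0013) and 0.69 ± 0.22 (adjusted p = 0.026) on the log2 scale. Pvalb (parvalbumin), which buffers calcium in fast fibers, fell by 0.87 ± 0.27 (adjusted p = 0.035) and by 1.49 ± 0.25 (adjusted p = 0.0013). Mrln (myoregulin), another small inhibitor of SERCA in skeletal muscle, was lower by a log2 fold change of -0.73 ± 0.28 (adjusted p = 0.067) in wild-type mice and fell by 1.38 ± 0.28 (adjusted p = 0.0032) in V338Y mice. Sln and Mrln, which both inhibit the pump, therefore stood on opposite sides in V338Y mice. Pln (phospholamban), a further inhibitor of SERCA, stood with Sln there. It was scarce and called higher, at a mean of 0.843 CPM at 3 mo and 1.96 CPM at 19 mo. Slc8a3, a sodium-calcium exchanger, rose by 0.61 ± 0.09 (adjusted p = 0.0013) in wild-type mice and was at 0.37 ± 0.14 (adjusted p = 0.057) in V338Y mice.

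Among 7 genes of store-operated calcium entry, the refilling of the store from outside, 1 was called higher and 2 lower in wild-type mice, and 2 higher and 0 lower in V338Y mice, with a median log2 fold change of -0.17 and 0.01. Stim1, the calcium sensor of the store, rose by 0.47 ± 0.10 (adjusted p = 0.0082) and 0.38 ± 0.12 (adjusted p = 0.026). Its channel partner Orai1 fell by 0.54 ± 0.14 (adjusted p = 0.015) in wild-type mice and was at 0.01 ± 0.18 (adjusted p = 0.970) in V338Y mice, with an interaction of 0.54 ± 0.24 (adjusted p = 0.507). Among 11 genes of surface membrane excitation, 2 were called higher and 1 lower in wild-type, and 3 higher and 1 lower in V338Y mice, with a median of 0.23 and 0.035. Atp1b2, a β subunit of the sodium pump, rose by 2.41 ± 0.15 (adjusted p = 3.24e-05) and 2.37 ± 0.34 (adjusted p = 0.00064). Scn4a, the sodium channel that carries the muscle action potential, rose by 0.63 ± 0.10 (adjusted p = 0.0016) and 0.36 ± 0.13 (adjusted p = 0.044). The gene called lower in both genotypes was Fxyd1. Its mean went from 105 to 73.0 CPM in wild-type and from 115 to 61.8 CPM in V338Y mice. None of the genes of the reuptake, entry or excitation lists was called between genotypes or in the interaction.

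The relatives of the 10 genes that serve other tissues were scarce in this muscle, and 9 of 16 listed paralogs were abundant enough to be tested with age. Of these 3 were called higher and 1 lower in wild-type mice and 4 higher and 0 lower in V338Y mice, with a median log2 fold change of 0.73 and 0.83. In the 3-mo groups 7 paralogs passed the count filter, so some of the 9 entered the age tests only through the 19-mo mice. Cacna1c, the pore of the cardiac voltage-gated calcium channel, had 3.31 ± 0.41 CPM (SD, n = 4) in wild-type mice at 3 mo and 6.07 ± 0.53 CPM (n = 3) at 19 mo. It rose by 0.87 ± 0.16 (adjusted p = 0.0036) in wild-type and 1.40 ± 0.19 (adjusted p = 0.00048) in V338Y mice. Ryr2, the cardiac release channel, was at 0.955 ± 0.22 and 1.60 ± 0.47 CPM in wild-type and 0.321 ± 0.095 and 0.934 ± 0.22 CPM in V338Y mice at the 2 ages. Its log2 fold change was 0.71 ± 0.32 (edgeR adjusted p = 0.105) in wild-type and 1.59 ± 0.36 (edgeR adjusted p = 0.0058) in V338Y mice. In the V338Y group no young mouse was above 0.461 CPM or reached 10 counts. The gene passed the filter there only through the 19-mo mice, at 0.703 to 1.16 CPM, so nothing is drawn from that call.

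The pattern over the 15 mice most like that of Ryr1 was that of Scn4a, with a root mean square difference of 0.102 on the log2 CPM scale after centring each gene, among 7403 genes with a mean of at least 10 CPM. Abcc9 (0.113) and Gstm2 (0.117) followed. For Sln the nearest were Runx1 (0.636), Ampd3 (0.743) and Egln3 (0.809). This difference grows with the spread of a gene between mice, which was far wider for Sln, so the values for Sln and Ryr1 are not compared. Runx1, a transcription factor known to be induced in denervated muscle, had 2.92 to 3.97 CPM in wild-type mice at 3 mo, 9.20 to 15.7 CPM at 19 mo and 10.6 to 38.4 CPM in V338Y mice at 19 mo.

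Some counts could be touched by other annotated features. An antisense gene and a microRNA lie over Ryr1, with at most 11 and 27 counts per mouse, and an opposite-strand transcript lies over Cacnb1 with at most 2. Reads that match several genes were divided between them by estimate, so the counts of members with close paralogs, such as Fkbp1a and Fkbp1b, are not fully independent of those of their relatives.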

How the data were processed

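RNA of 15 quadriceps samples was sequenced by the authors as single-end stranded reads. Per the methods it was extracted with TRIzol, and reads were assigned to Ensembl genes with RSEM. The submitters' notes name STAR 2.4.2a, CASAVA 1.8, bcl2fastq 1.8.4 and the build GRCm38, where the methods name GRCm37. The deposited values are expected counts per gene, given as whole numbers and not scaled for depth or length. Positions, exon lengths and longest transcripts come from a GENCODE annotation of GRCm38, which gave a symbol to 37693 of 39179 identifiers, and promoter windows from RefSeq.

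The main tool was edgeR 4.0.16 under R 4.3.3, with DESeq2 1.42.0 as an alternative. A gene was kept where 50% or more of the mice of a compared group had 10 or more counts. Kept genes were scaled by TMM and compared by the quasi-likelihood test between 2 groups, or in a fit of all 15 mice for the interaction, with Benjamini-Hochberg adjustment over all genes at 0.05. Standard errors are the log2 fold change over the root of the F statistic. Log2 ratios, with 0.5 added to each count, were compared by exact permutation tests in SciPy 1.17.1. Code was tested on simulated data. Of 105 pairs of files 0 were identical, and chi-square per degree of freedom within groups was 5.85 to 111, above counting noise.

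The members and gene lists were chosen with earlier results of these data known. All 10 members are named, from each other pathway list genes among the 4 with the smallest adjusted p in either age comparison or called between genotypes, and for Ryr1 and Sln the 3 genes nearest in pattern. Strit1, 1 of 131 listed genes, was not matched. Alternatives were RLE factors, DESeq2, no filter, filterByExpr, TMM without the 10 most counted genes, a fit of all mice, leaving out each mouse, a pseudocount of 5 for ratios, a replicate block and, chosen after seeing the data, loess offsets for GC content and length, together and, for age, singly. For genotype at 19 mo the 3 same-numbered pairs correlated at 0.132 to 0.400 in their deviations from group means, the other 9 pairs at -0.407 to 0.467, so the paired fit is given beside that result, on a hint from the data as no label names a shared cage, litter or day.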

Additional observations from a re-analysis of the deposited data

Results flagged for a closer look

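Of 39 groups of 4 mice examined for a single distant mouse among the values of the 10 genes and their ratios, 1 stood out, where about 1 in 20 would by chance. Cacnb1 in wild-type mouse 1 at 3 mo was at 87.45 CPM, against 71.9 to 73.6 CPM in the other 3 mice of its group, a gap of 0.878 of the range of the group. The same mouse is the one in which the 2 genotypes overlapped at 3 mo.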

How the results depend on the processing

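RLE size factors, edgeR's filterByExpr, TMM without the 10 most counted genes and the fit of all 15 mice kept every count of genes and of members called within 1.5 times. Under GC and length offsets the Ryr1 fold change with age reversed (-0.208 in wild-type mice, -0.631 in the V338Y group) and was -0.0791 in V338Y mice under length offsets alone, and its V338Y call was lost under GC offsets alone (0.271). Under length offsets alone the wild-type calls of Ryr1 and Stac3 were lost and Cacng1 was called. The cause was not tested. DESeq2 called 66, 62 and 26 genes and no filter 33, 14 and 5 genes for genotype at 3 mo, genotype at 19 mo and the interaction, against 10, 6 and 0, and 0 of the 10 members in each. The cause was not tested. Leaving out each mouse in turn gave 3 to 14 genes for genotype at 3 mo and 2 to 7 at 19 mo, lowest without V338Y mouse 3 and without wild-type mouse 4. Members called with age were then 4 to 7 in wild-type mice, against 6 in the main fit, and 6 to 7 in V338Y mice, against 8.

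The replicate block by mouse number called 2229 genes and 3 members with age in wild-type mice (Ryr1, Cacng1 and Sln), 5505 genes and 5 members in V338Y mice, 110 genes for genotype at 19 mo (84 with GC and length offsets) and 28 for the interaction, and 14 for genotype at 3 mo. With the block the wild-type age calls of Stac3 (edgeR adjusted p = 0.085), Jph1 (0.106), Jph2 (0.105) and Fkbp1a (0.054) were lost. In V338Y mice those of Ryr1 (0.081), Cacnb1 (0.115) and Sln (0.114) were lost. For age and for genotype at 3 mo the numbers did not mark shared deviations, so these fits spend degrees of freedom on a number. Same-numbered pairs correlated at 0.005 to 0.016 for age in wild-type mice, -0.136 to 0.015 for age in V338Y mice and -0.162 to 0.141 for genotype at 3 mo. Counting noise limited Sln, at 3 to 25 counts per mouse at 3 mo.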
